A study of Mus musculus with 24 samples.

Results

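The collagen chain genes are the family of genes that encode the alpha chains of collagen, named Col, a type number, a and a chain number. They were taken from the array by gene name alone, with no use of a measured value. The array carried 68 probes of such names among 39429 probes, and these stood for 43 genes. Signal was sufficient for 39 of the 43 genes, out of 20943 genes of all kinds that were tested. Col4a3, Col6a5, Col6a6 and Col19a1 had no probe with enough signal and were not tested.

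The samples were 24 mammary tumors of female BALB/c mice, all induced with the carcinogen 7,12-dimethylbenz[a]anthracene (DMBA), and each tumor RNA was hybridized with a reference RNA on a 2-color Agilent array. DMBA was given by gavage at 50 mg/kg in 4 weekly doses from 5 weeks of age, and the experiment ended at 45 weeks of age. All mice entered a diet at 3 weeks of age, either a low-fat diet (LFD, 10% of energy as fat) or a high-fat diet rich in animal fat (HFD, 60%), and those of the switched groups changed diet at 9 weeks of age. An early tumor arose within 23 weeks of DMBA. There were 3 early and 6 late tumors of continuous HFD, 3 early and 3 late tumors of HFD switched to LFD (HFD-LFD), 5 late tumors of continuous LFD, and 4 late tumors of LFD switched to HFD (LFD-HFD). Thus all 6 early tumors came from mice that ate HFD before 9 weeks of age, and no early tumor represented LFD or LFD-HFD. The model is chemically induced in a single inbred strain, every group including the continuous LFD controls received DMBA, and no mammary tissue without a tumor was measured. The labels do not say whether any 2 tumors came from a single mouse, so p-values measure the spread between these tumors.

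Collagens are triple helices of alpha chains, and the chain types differ in where they are laid down. Fibrillar collagens such as types I, III and V form the fibers of connective tissue and are made largely by fibroblasts, whereas type IV collagens form the sheet of the basement membrane under epithelium and around vessels. FACIT collagens sit on the surface of fibers, type VI forms beaded filaments, and transmembrane collagens such as types XVII and XXIII stay anchored in the plasma membrane. In mammary tumors the amount and arrangement of collagen is a well-known feature of the stroma. Here whole tumor pieces were measured, so fewer cells of a type and less RNA per cell cannot be told apart.

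Each value is the log2 ratio of the tumor signal (cyanine 5) over the reference signal (cyanine 3), so a level of 0 is the level in the reference RNA, a pool of 11 mouse cell lines. This direction follows the sample labels and is opposite to the methods text of the study, which gives cyanine 5 to the reference. The files bore on this directly. Across 17 arrays, the median SD of a probe between arrays was 0.6 in cyanine 5 and 0.25 in cyanine 3, on the log2 scale. The Y-linked genes Ddx3y and Eif2s3y had median background-subtracted intensities of 657 and 521 in cyanine 3, but −1.92 and −2.12 in cyanine 5, the channel labelled as female tumor. A level is relative to that gene's own reference level, and levels were not compared between genes.

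The 24 arrays lay on 7 slides scanned in 3 sessions, and the share of probes well above background in cyanine 5 was 65.3 to 89.1% per array. Continuous LFD and continuous HFD lay mainly in session 1, where the 3 HFD early tumors filled slide 2, while the HFD-LFD early tumors shared slide 4 with 1 late tumor. On the 7 arrays of session 3, all of late tumors, bands of rows were dimmed, and values there were treated as missing. This touched 14 of the 39 collagen genes, and the number of late tumors measured is given where it was under 18. Outside these bands, missing values of 18 collagen genes were imputed from similar genes, up to 5 for a gene. Epithelial markers were present in the tumors, with a median of 8.5 of 9 luminal and 8 of 8 basal markers well above background in early tumors, and 9 and 8 in late tumors.

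Collagen genes varied more between tumors than most genes. Their median SD over tumors was 0.78, against 0.38 for all genes tested, and 35 of 39 (89.7%) had an SD above that all-gene median. Col10a1 (SD 1.63) and Col23a1 (SD 1.53) had the largest spread. Fibrillar genes had a median SD of 0.81, type IV genes 0.87, type VI genes 0.73, and the multiplexins, Col15a1 and Col18a1, 0.49.

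The first comparison was of early (n = 6) with late (n = 18) tumors, the contrast that the study drew to find genes tied to tumor latency. In the study, tumors of short latency were also more often adenosquamous and more often negative for estrogen and progesterone receptors. The part of histology in the differences below was not tested. The group sizes here are those of the labels, and they differ from the sizes that the study states for this contrast and for HFD against LFD. Of 39 collagen genes, 10 (25.6%) differed at an adjusted p under 0.05 in limma. Of these, 4 were higher in early tumors, where 6.51% of all genes were, and 6 were lower, where 10.3% of all genes were. The higher genes were Col10a1, Col8a2, Col14a1 and Col9a3. The lower genes were Col23a1, Col4a5, Col4a6, Col20a1, Col22a1 and Col4a4. The other 29 did not pass the test, among them every fibrillar gene. The median early minus late difference was 0.04 over the collagen genes and −0.06 over all genes. No collagen gene separated early from late tumors without overlap, while 0.21% of all genes lay above and 0.444% below all late tumors in this way.

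**Figure D1:**
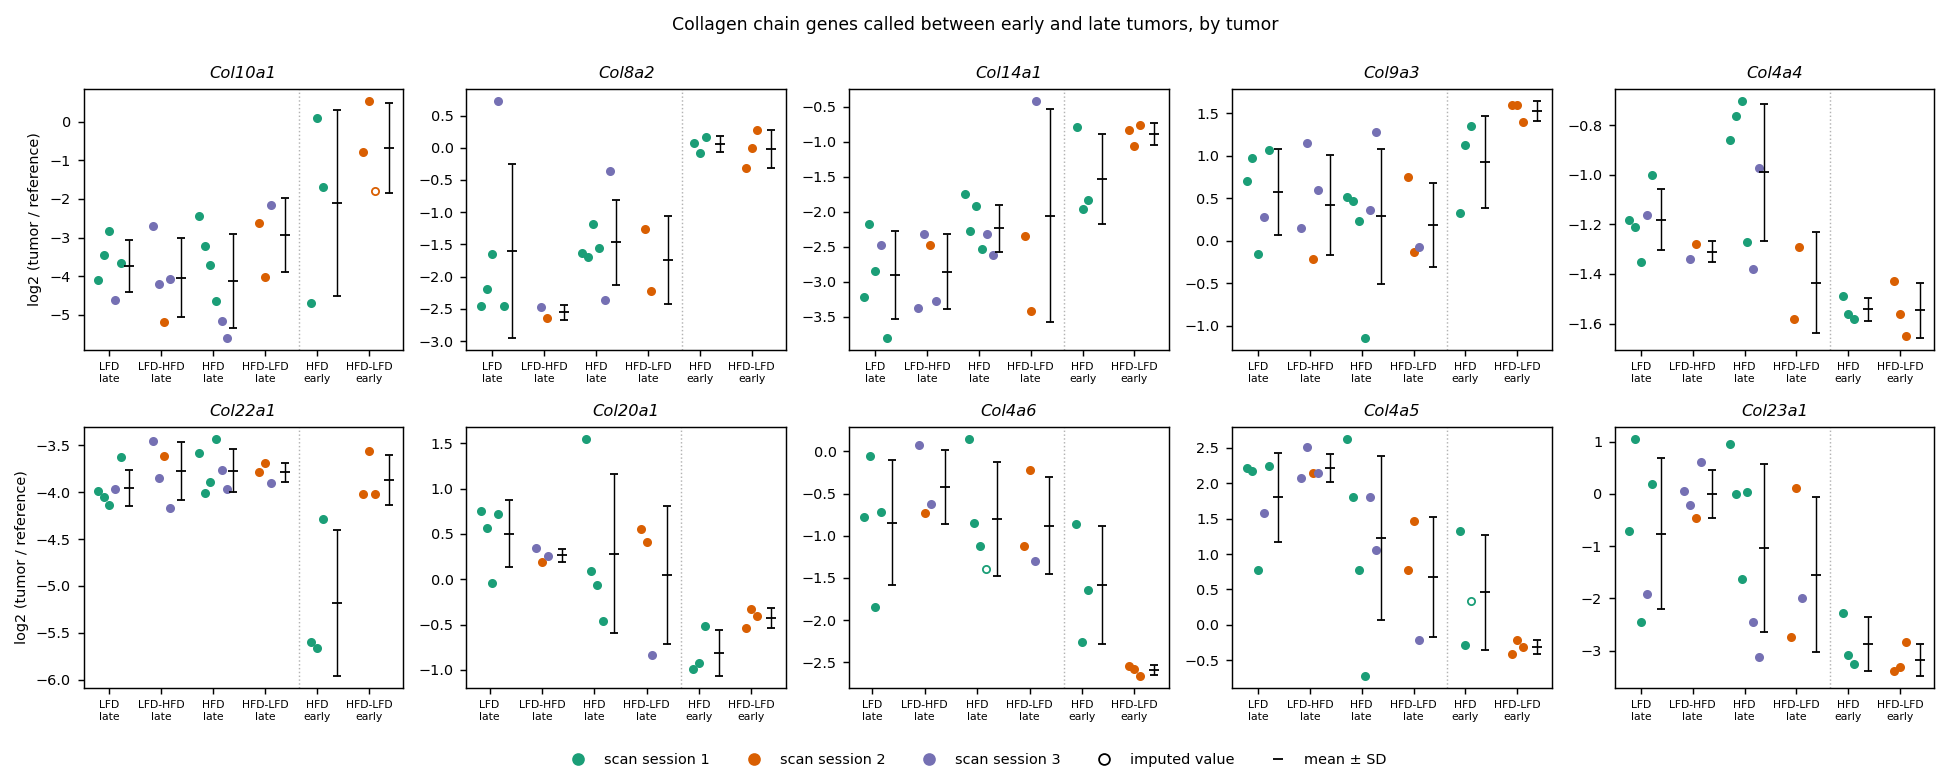
Level of the 10 collagen genes that differed between early and late tumors, as log2 tumor over reference, with a point per tumor and a panel per gene, by diet and onset group, colors for scan sessions, open points for imputed values and bars for the mean and SD. For Col8a2 all 6 early tumors lie between −0.31 and 0.27, and for Col22a1 the low values belong to the 3 HFD early tumors.

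Among the network-forming and anchoring collagens, Col10a1 and Col8a2 rose and Col7a1 and Col8a1 did not pass the test. Col10a1 encodes type X collagen, a short chain known from the growth plate cartilage. Its level in HFD early tumors was −4.69, 0.08 and −1.69, and in HFD-LFD early tumors −0.78, 0.54 and −1.79, the last of these imputed. Late tumors ranged from −5.59 to −2.16 with a median of −3.87. Hence 5 of 6 early tumors lay above every late tumor, and the HFD early tumor MSU_163 lay among the lowest late tumors. The difference was 2.41 ± 0.56 (SE; 5.32-fold, adjusted p = 0.00622). It was 3.07 without MSU_163, 1.41 within scan session 1 (adjusted p = 0.257) and 3.27 within session 2 (0.0514).

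Col8a2 encodes a chain of type VIII collagen, a network-forming collagen of vessel walls and the cornea. The HFD early tumors had levels of 0.07, −0.08 and 0.17 and the HFD-LFD early tumors −0.31, −0.01 and 0.27. The 15 measured late tumors ranged from −2.64 to 0.73 with a median of −1.69. A single late tumor, MSU_28 of LFD, was above all early tumors at 0.73, and the next highest, MSU_96 of HFD, was below all of them at −0.36. The difference was 1.71 ± 0.36 (adjusted p = 0.00405), and the weaker of the 2 Col8a2 probes gave 0.88 (adjusted p = 0.00748 over probes). For MSU_28 the probes disagreed, at 0.73 and −1.51. Col8a1, the other chain of type VIII, differed by 0.08 ± 0.34 (adjusted p = 0.896).

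Type IV collagen has 6 chains, transcribed in head-to-head pairs from shared promoter regions. Early tumors were lower in 3 of the 5 tested type IV genes, where 10.3% of all genes were lower, and Col4a6 alone of the 3 kept its call with slide as a random block or with median centring. These were Col4a5, Col4a6 and Col4a4, the minor chains, whereas the common chains Col4a1 and Col4a2 differed by 0.91 ± 0.45 (adjusted p = 0.157) and 0.37 ± 0.35 (adjusted p = 0.485). Col4a1 was called higher in early tumors with median centring (1.32, adjusted p = 0.0352) and in HFD and HFD-LFD tumors with diet as a term (1.20, adjusted p = 0.0326). The early Col4a5 level was 1.32, −0.28 and 0.33 in HFD, where the last was imputed, and −0.42, −0.22 and −0.31 in HFD-LFD. Late tumors ranged from −0.72 to 2.63 with a median of 1.80. Late tumors of LFD-HFD lay together between 2.07 and 2.51, above all early tumors, while 6 of 18 late tumors lay no higher than the highest early tumor. The Col4a5 difference was −1.44 ± 0.39 (adjusted p = 0.0158), and in HFD and HFD-LFD tumors with diet as a term it was −0.87 (adjusted p = 0.176), without a call.

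Col4a6 lies beside Col4a5 on chromosome X and moved alongside it. Its early levels were −0.86, −2.26 and −1.64 in HFD and −2.54, −2.58 and −2.66 in HFD-LFD. The 14 measured late tumors ranged from −1.84 to 0.15 with a median of −0.76. All HFD-LFD early tumors were below every late tumor, and the HFD early tumor MSU_163 was the highest early tumor for both genes. The difference was −1.34 ± 0.29 (adjusted p = 0.00479). The other Col4a6 probe gave −0.25 (adjusted p = 0.0844 over probes), so the size of the Col4a6 difference rests on a single probe. That other probe had a lower median reference signal (142 against 290). Its median tumor signal was higher (254 against 181), and it had signal on all 24 arrays. Across 20 tumors with both genes, the Col4a5 and Col4a6 levels had a Pearson r of 0.86 and a Spearman rho of 0.90. These used the Col4a6 probe of the larger difference.

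The promoter windows of this pair are shown because the genes share a promoter region and fell together, beside those of Col10a1 and Col23a1, which showed the greatest rise and fall among the collagen genes. Each is the 250 bases before the transcription start in RefSeq (GRCm38.p6), read 5′ to 3′ on the strand of the gene. Capitals mark 3 short motifs found on either strand, none overlapping another. These were TATAAA for the TATA box, the letters CCAAT for the CCAAT box, and the letters GGGCGG for the GC box. Col4a5 is at chrX:141475169-141475418 (plus strand), Col4a6 at chrX:141474077-141474326 (minus strand), Col10a1 at chr10:34389731-34389980 (plus strand) and Col23a1 at chr11:51289670-51289919 (plus strand).
Col4a5: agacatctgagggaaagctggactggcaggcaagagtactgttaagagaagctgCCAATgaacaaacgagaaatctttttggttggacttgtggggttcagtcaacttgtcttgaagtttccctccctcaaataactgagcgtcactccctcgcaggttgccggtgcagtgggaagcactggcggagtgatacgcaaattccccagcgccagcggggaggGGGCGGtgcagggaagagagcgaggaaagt
Col4a6: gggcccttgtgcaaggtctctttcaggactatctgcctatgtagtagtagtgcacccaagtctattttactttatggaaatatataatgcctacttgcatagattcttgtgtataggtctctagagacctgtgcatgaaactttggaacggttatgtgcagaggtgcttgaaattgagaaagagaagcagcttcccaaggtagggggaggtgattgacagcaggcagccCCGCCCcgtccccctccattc
Col10a1: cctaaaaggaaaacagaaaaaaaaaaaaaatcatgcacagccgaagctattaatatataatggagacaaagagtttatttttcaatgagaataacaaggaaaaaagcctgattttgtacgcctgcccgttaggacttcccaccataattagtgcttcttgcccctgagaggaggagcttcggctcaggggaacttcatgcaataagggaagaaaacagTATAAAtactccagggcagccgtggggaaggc
Col23a1: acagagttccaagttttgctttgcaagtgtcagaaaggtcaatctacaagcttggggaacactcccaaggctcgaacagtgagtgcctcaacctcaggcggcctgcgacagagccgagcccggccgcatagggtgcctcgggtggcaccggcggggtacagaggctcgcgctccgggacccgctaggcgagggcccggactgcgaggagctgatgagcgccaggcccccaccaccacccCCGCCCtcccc
The starts of Col4a6 and Col4a5 are 1343 bases apart and face away from each other, and those of Col4a2 and Col4a1 are 21 bases apart. The GC box letters were found in the Col4a5, Col4a6 and Col23a1 windows, the CCAAT box in that of Col4a5, and the TATA box in that of Col10a1. Among 32851 windows of this length over all genes, 12.4% held the TATA box letters, 33.8% the CCAAT box and 32.7% the GC box. Among 38 windows of 35 collagen genes the shares were 13.2, 34.2 and 57.9%. Such a match is a run of letters and was not tested for binding.

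Col4a4 had the smallest of the called differences, −0.39 ± 0.11 (adjusted p = 0.022). Its early levels lay between −1.65 and −1.43 and its 15 measured late levels between −1.58 and −0.70. Only MSU_26, a late HFD-LFD tumor, lay within the early range. The weaker of its probes showed 0.04, and the call was lost as a mean over probes (−0.25, adjusted p = 0.103). It was also lost without HFD-LFD early tumor MSU_62b (−0.37, 0.0501) or without HFD early tumor MSU_768 (−0.39, 0.0522).

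Among FACIT collagens, 4 of 8 tested genes differed, 2 in each direction, where 16.8% of all genes differed. Col14a1, which encodes a collagen on the surface of type I fibers, was higher in early tumors. Levels were −0.79, −1.96 and −1.83 in HFD early tumors and −0.83, −1.06 and −0.76 in HFD-LFD early tumors, against a late range from −3.80 to −0.41 with a median of −2.48. Each of the 6 early tumors exceeded the late median, and the late HFD-LFD tumor MSU_59b was the highest of all. The difference was 1.33 ± 0.33 (adjusted p = 0.00855), and the other Col14a1 probe gave 1.06. In HFD and HFD-LFD tumors with diet as a term it was 0.91 (adjusted p = 0.0887), without a call. Col9a3, a chain of the cartilage collagen type IX, was higher by 0.85 ± 0.26 (adjusted p = 0.027), with early levels from 0.32 to 1.60 and late levels from −1.14 to 1.28. The Col9a3 call was lost on leaving out any of 5 of the 6 early tumors, namely MSU_51, MSU_54, MSU_62b, MSU_768 and MSU_97 (0.78 to 0.87). It was also lost by the scanner log ratio (1.17, adjusted p = 0.0927). Its partner chains differed by 0.35 ± 0.54 for Col9a1 and −0.43 ± 0.50 for Col9a2 and were not called.

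Col20a1, a FACIT member of type XX, was lower in early tumors by 0.91 (log2 difference −0.91 ± 0.24, adjusted p = 0.0145), and a second probe gave −0.92. Its early levels lay between −0.99 and −0.33, and the 14 measured late levels ran from −0.83 to 1.55 with a median of 0.30. Late tumors MSU_59b and MSU_86 lay within the early range and the other late tumors above it. Col22a1, found at tissue junctions such as that of muscle and tendon, differed by −0.70 ± 0.21 (adjusted p = 0.0279), and a second probe gave −0.97. Its levels were −5.60, −5.66 and −4.29 in the HFD early tumors and −4.02, −3.56 and −4.02 in the HFD-LFD early tumors, against −4.17 to −3.43 in late tumors. Thus the HFD early tumors were below all late tumors, and the HFD-LFD early tumors lay among them. The Col22a1 tumor signal was well above background in 5 of the 6 early and in all 18 late tumors. An exact size of the difference is therefore uncertain. The Col22a1 call was lost without MSU_163 (−0.48), without MSU_768 (−0.47) and with array weights (−0.42, adjusted p = 0.0906). It was also lost by the scanner log ratio (−0.97, 0.0582) and without the slides with dimmed rows (−0.72, 0.0626).

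The transmembrane collagen Col23a1 had the greatest fall of the family, −2.22 ± 0.54 (adjusted p = 0.00798). In HFD and HFD-LFD tumors with diet as a term it was −1.76 (adjusted p = 0.0568), without a call. Type XXIII collagen is a membrane collagen of epithelial cells. Early levels were uniformly low, at −2.29, −3.09 and −3.26 in HFD and −3.39, −3.32 and −2.84 in HFD-LFD. Late tumors spread widely, between −3.12 and 1.06 (median −0.34), and 4 of 18 lay within the early range. The 2 other Col23a1 probes gave −2.03 and −0.56. Col17a1, a hemidesmosome collagen that ties basal epithelial cells to the basement membrane, differed by 0.62 ± 0.40 (adjusted p = 0.28). Col13a1 and Col25a1 differed by −0.20 ± 0.13 and 0.68 ± 0.32 and were not called.

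None of the 11 fibrillar genes and none of the 4 type VI genes were called between early and late tumors, where 16.8% of all genes were. Col1a1, the main chain of type I collagen, ranged from −4.23 to −2.42 in early tumors (median −3.33) and from −5.96 to −0.35 in late tumors (median −3.70), a difference of 0.43 ± 0.52. Col1a2, its partner chain, differed by −0.51 ± 0.44, and Col3a1, the type III chain, by −0.51 ± 0.40. The early and late ranges of these genes overlapped. Imputed values numbered 2 for Col1a1, 4 for Col1a2 and 5 for Col3a1. Those of Col1a2 included the early tumors MSU_51, MSU_62b and MSU_97. Col5a1, Col6a1, Col7a1 and Col18a1 differed by 0.05 ± 0.38, −0.18 ± 0.33, 0.22 ± 0.32 and 0.04 ± 0.25, with adjusted p from 0.662 to 0.938. For Col1a1, Col5a1, Col6a1, Col7a1 and Col18a1 the sign changed under some settings, none of them with a call.

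**Figure D2:**
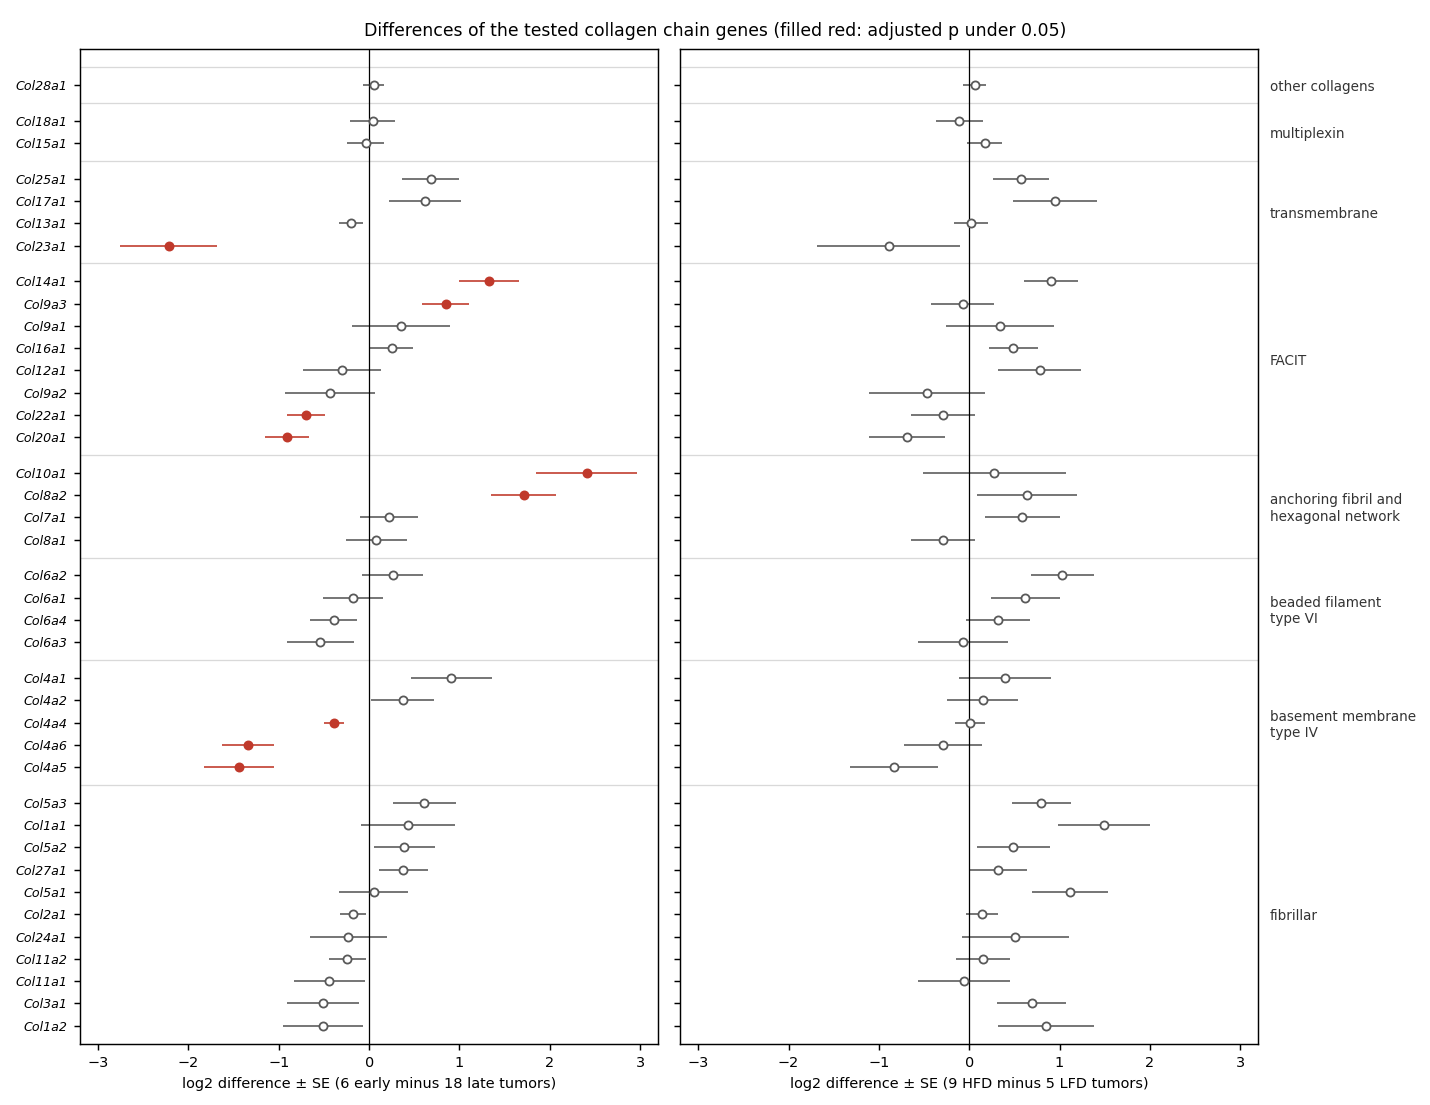
Log2 difference with its standard error for the 39 tested collagen genes, grouped by class, for 6 early minus 18 late tumors (left) and 9 HFD minus 5 LFD tumors (right), with filled points where the adjusted p was under 0.05. On the left the called genes run from Col10a1 at 2.41 to Col23a1 at −2.22, and on the right no gene is called and 10 of 11 fibrillar genes lie above 0.

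The direction of each of the 10 called genes held under every alternative run, but the split of calls moved with scaling. When each array was centred on its median in place of loess, the all-gene median rose from −0.06 to 0.21 and 81.3% of all calls were higher in early tumors, against 38.6% (57.7% in the tumor channel alone). Relative to that shift, 7 collagen genes (17.9%) were then higher, where 19.4% of all genes were, and 2 were lower. Col4a5 (−1.09, adjusted p = 0.0798), Col20a1 (−0.55, 0.136), Col22a1 (−0.34, 0.275) and Col4a4 (−0.34, 0.105) lost their call. With diet as a term among HFD and HFD-LFD tumors, Col20a1 (−0.80, adjusted p = 0.1) and Col4a4 (−0.39, 0.0647) also lost their call. With the dimmed rows kept, Col4a6 (adjusted p = 0.0944), Col20a1 (0.356) and Col4a4 (0.153) lost their call. In the tumor channel alone Col22a1 was −0.22 (adjusted p = 0.686). Col4a6 (−1.06, adjusted p = 0.0554), Col20a1 (−1.02, 0.0807) and Col9a3 (1.12, 0.0576) also lost their call there.

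Scan session and slide differed between the groups, so the comparison was repeated within sessions. Within session 1 (3 HFD early, 4 HFD late and 4 LFD late tumors) the calls for Col8a2 (1.90), Col22a1 (−1.34) and Col23a1 (−2.56) passed, and slide and onset cannot be told apart there. Within session 2 (3 early and 3 late tumors) Col14a1 (1.86), Col8a2 (2.02), Col9a3 (1.39), Col20a1 (−0.81), Col4a5 (−1.78) and Col4a6 (−1.90) passed. Counting a gene outside the 10, 4 collagen genes (10.3%) were higher within session 2. Of all genes, 3.18% were higher and 4.59% lower in early tumors within session 1, and 5.07 and 6.42% within session 2. Each of the 10 genes kept its direction in both sessions. With session as a fixed block, all 10 were called, where the share of all genes called also rose, to 9.95% higher and 15% lower in early tumors. With slide as a random block, Col10a1, Col8a2, Col14a1, Col23a1 and Col4a6 were called, where 2.63% of all genes were higher and 4.37% lower. Col8a2 was the only one of the 10 called within both sessions, and it was called under each of the 22 alternatives run for it and without each single tumor.

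**Figure D3:**
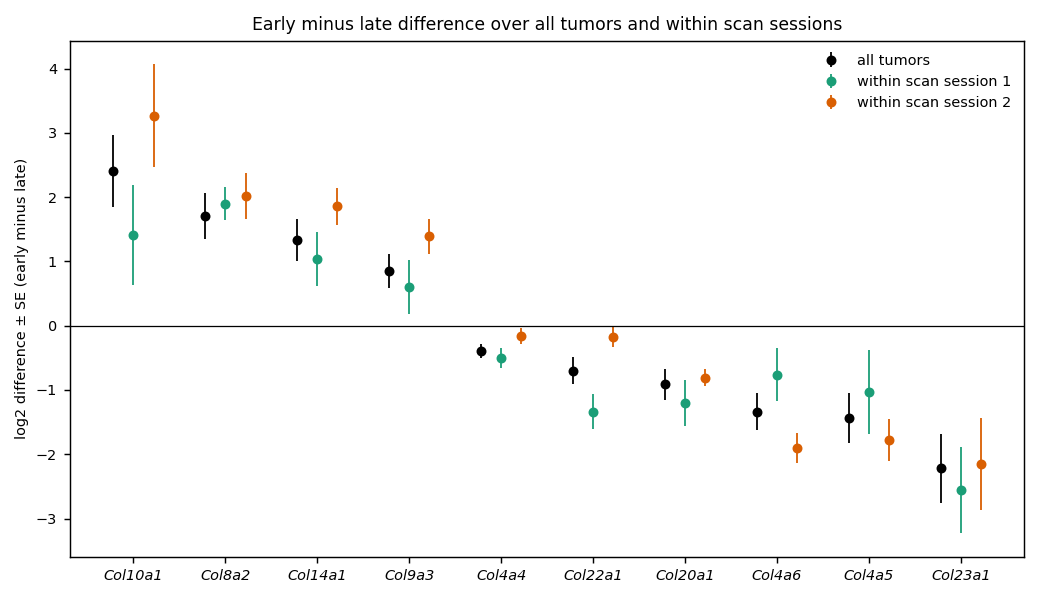
Early minus late log2 difference of the 10 called collagen genes over all tumors, within scan session 1 and within scan session 2, with standard errors. Every gene has its 3 differences on the same side of 0, and Col22a1 shows −1.34 in session 1 and −0.17 in session 2.

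Early and late tumors could also be set side by side inside each diet that gave both. The HFD early tumors lay on slide 2 and the HFD late tumors on slides 3 and 6. The HFD-LFD early tumors lay on slide 4 and the HFD-LFD late tumors on slides 5 and 7. Slide and onset therefore cannot be told apart within either diet, nor in the difference between the diets. Within HFD (3 against 6), 2 of 39 collagen genes were called, where 12.8% of all genes were. These were Col22a1 (−1.41, adjusted p = 0.00146) and Col4a4 (−0.55, adjusted p = 0.0193). With session as a block 7 (17.9%) were called, where 17.1% of all genes were. Without the slides with dimmed rows 7 were (18.4%, and 17% of all genes), and with array weights 16 (41%, and 38.6%). With slide as a random block 1 was (2.56%, and 1.16% of all genes). In the tumor channel alone Col22a1 was −0.70 (adjusted p = 0.271). Col4a4 lost its call as a mean over probes (−0.30, adjusted p = 0.2), with median centring (−0.54, 0.087) and with slide as a block (−0.53, 0.141). It also lost it without MSU_67 and MSU_84 (−0.42, 0.0733), and without MSU_163 (−0.58, 0.0541), MSU_768 (−0.55, 0.0728) or MSU_97 (−0.54, 0.0709). Within HFD-LFD (3 against 3) no collagen gene was called, where 0.683% of all genes were, and the smallest adjusted p was 0.0958 for Col4a6 (−1.71, unadjusted p = 0.00171), followed by Col9a3 (1.35, unadjusted p = 0.00801). Col4a6 was called with session as a block (−1.74, adjusted p = 0.0434) and with array weights (−1.75, 0.00564), and Col9a3 with array weights (1.21, 0.0188). For Col10a1 the difference was 2.03 within HFD and 2.26 within HFD-LFD, for Col8a2 1.52 and 1.72, and for Col23a1 −1.84 and −1.64. The difference between the diets was itself tested, and no collagen gene was called (smallest adjusted p = 0.422), where 0.00477% of all genes were. At an unadjusted p under 0.05 there were 3 of 39 collagen genes (7.69%), against 7.95% of all genes. They included Col22a1, at −1.41 within HFD and −0.08 within HFD-LFD (unadjusted p = 0.00131), and Col28a1 (difference of −0.53, unadjusted p = 0.0228). The Col28a1 value is imprecise, as its reference signal was well above background on only 6 of 24 arrays. The Col22a1 difference between the diets was called without MSU_97 (−1.78, adjusted p = 0.00668) and with array weights (−1.30, 0.0489).

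The second comparison was of continuous HFD (n = 9) with continuous LFD (n = 5). Of the HFD tumors 3 were early, while all LFD tumors were late, so diet is mixed with onset in this comparison. No collagen gene was called in limma (smallest adjusted p = 0.983), and the share of all genes called was 0%. At an unadjusted p under 0.05, 5 collagen genes were higher in HFD and none was lower, where 1.49% of all genes were higher at that threshold. These were Col14a1 (0.91), Col6a2 (1.03), Col1a1 (1.49), Col5a1 (1.12) and Col5a3 (0.80). None of these 5 passes the correction over all genes. With late HFD tumors only against LFD, Col1a1 (1.54), Col5a1 (1.44), Col6a2 (1.04) and Col14a1 (0.67) kept an unadjusted p under 0.05. Col5a3 did not (0.68, unadjusted p = 0.102). Col1a1 levels in LFD were −5.25, −4.00, −3.37, −2.96 and −5.15. In HFD the median was −2.72 (range −3.74 to −0.35), and 6 of the 9 were above the highest LFD tumor (unadjusted p = 0.0112). Without MSU_86, the HFD tumor with the highest level, the Col1a1 difference was 1.20 (adjusted p = 0.851). Within session 1 (7 against 4) the Col1a1 difference was 2.07 ± 0.53 (adjusted p = 0.382). No slide of that session held both diets, with LFD on slide 1 and HFD on slides 2 and 3. The value of 2.07 may therefore include a difference between slides.

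**Figure D4:**
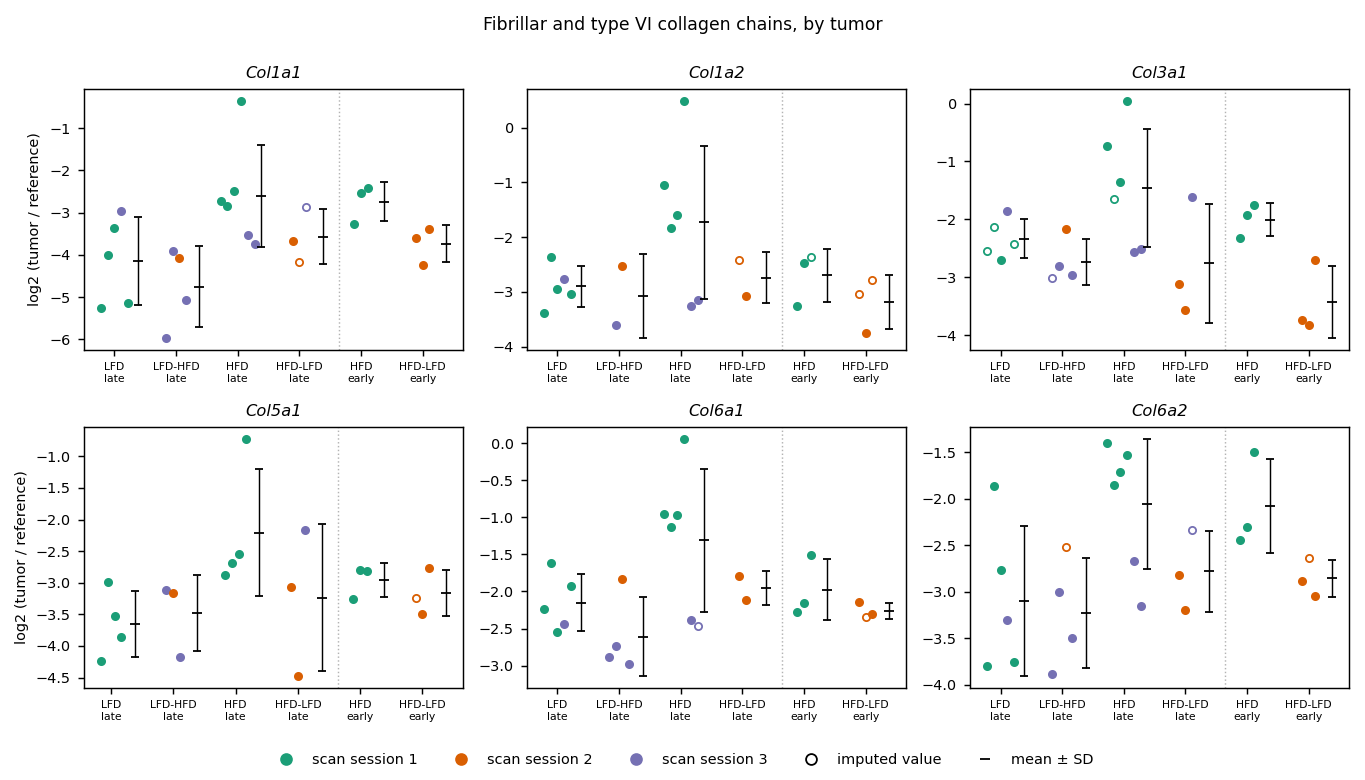
Level of 4 fibrillar and 2 type VI collagen genes, as log2 tumor over reference, with a point per tumor by diet and onset group, colors for scan sessions, open points for imputed values and bars for the mean and SD. HFD tumors lie higher than LFD tumors for Col1a1, with medians of −2.72 and −4.00, and the ranges overlap.

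The sign was shared by much of the family. The HFD minus LFD difference was above 0 for 28 of 39 collagen genes (71.8%), against 47.2% of all genes, and for 10 of 11 fibrillar genes. Members are not independent of each other, and this count was not tested. Of the cell type markers, all 14 fibroblast markers had a difference above 0, with a median of 0.53 and none called, and their mean level ranged from −2.24 to −0.69 in HFD (median −1.19) and from −2.38 to −1.34 in LFD (median −2.02). No marker of the other lists was called either. All 10 squamous markers (median 0.68), all 7 adipocyte markers (0.34), 6 of 7 macrophage markers (0.21), 6 of 10 endothelial markers (0.11) and 5 of 8 cartilage and bone markers (0.18) had a difference above 0. So did 2 of 8 basal markers (median −0.61), 1 of 9 luminal markers (−1.05) and 0 of 8 skeletal muscle markers (−0.32). The part of these cell types in the collagen values was not tested.

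The third comparison was of the 4 diet groups among the 18 late tumors. No collagen gene was called, where 1.74% of all genes were, but with array weights 14 of 39 (35.9%) were, where 19.9% of all genes were. At an unadjusted p under 0.05 there were 13 of 39, against 19.8% of all genes. Col28a1 (unadjusted p = 0.00393, adjusted p = 0.0893) and Col1a1 (0.00692 and 0.11) had the smallest values. The Col28a1 signal was well above background on 6 of 24 arrays in the reference and on 17 in the tumor, so its ratio is imprecise. Late LFD-HFD tumors had Col1a1 levels of −5.96, −3.90, −4.07 and −5.07, near those of LFD, and late HFD-LFD tumors had −3.66, −4.17 and −2.87, of which −4.17 and −2.87 were imputed. Relative to late LFD tumors, the Col1a1 difference was 1.54 ± 0.54 for HFD (adjusted p = 0.476), 0.58 ± 0.65 for HFD-LFD and −0.60 ± 0.59 for LFD-HFD, and none was called.

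Pairs of chains of the same collagen type were then compared across tumors, together with Col1a1 and Col3a1, which belong to separate molecules. Of these 11 pairs, 10 had both genes tested, and 7 had an adjusted permutation p under 0.05 (Pearson, 100000 permutations). The Col4a1 and Col4a2 levels had r = 0.92 over 24 tumors (rho 0.91), and r was 0.93, 0.96 and 0.69 within sessions 1, 2 and 3. The raw permutation p was 1e-05 for this pair and for Col4a5 with Col4a6, the smallest that these permutations can give, and the adjusted value was 5e-05. For Col4a5 and Col4a6 r was 0.84 within session 1 and 0.93 within session 2. Within early and within late tumors r was 0.98 and 0.92 for Col4a1 with Col4a2, and 0.97 and 0.76 for Col4a5 with Col4a6. Without the 2 tumors farthest from the median, r was 0.90 for Col4a1 with Col4a2 and 0.89 for Col4a5 with Col4a6.

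Col1a1 and Col1a2, the chains of type I collagen, had r = 0.80 over 21 tumors (rho 0.72, adjusted permutation p = 7.5e-05), and Col1a1 with Col3a1 r = 0.72. Left without MSU_86 and MSU_24 these were 0.62 and 0.58. Imputed levels, drawn from similar genes, entered these r values (2 for Col1a1, 4 for Col1a2 and 5 for Col3a1). The type VI chains had r = 0.78 for Col6a1 with Col6a2 and 0.70 for Col6a1 with Col6a3. In session 2 these 4 pairs had r from 0.20 to 0.48, over 6 tumors. Col5a1 with Col5a2 had r = 0.63 (rho 0.45, adjusted permutation p for rho = 0.0653) but 0.23 without MSU_86 and MSU_58, and so rests on those tumors. Col8a1 with Col8a2 (0.30), Col9a1 with Col9a2 (0.12) and Col11a1 with Col11a2 (0.05) had adjusted permutation p from 0.228 to 0.83. In session 2, over 6 tumors, their r was 0.80, 0.67 and −0.39, in the order given. Thus the type IV pairs and the type I and VI chains varied together, and a relation was not detectable for the type VIII, IX and XI pairs under the main settings. With median centring the type VIII pair had r = 0.54 (adjusted permutation p = 0.0133), without the filter on signal the type IX pair had r = 0.52 (0.0303), and in the tumor channel alone Col1a1 with Col3a1 had r = 0.32 (0.177).

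**Figure D5:**
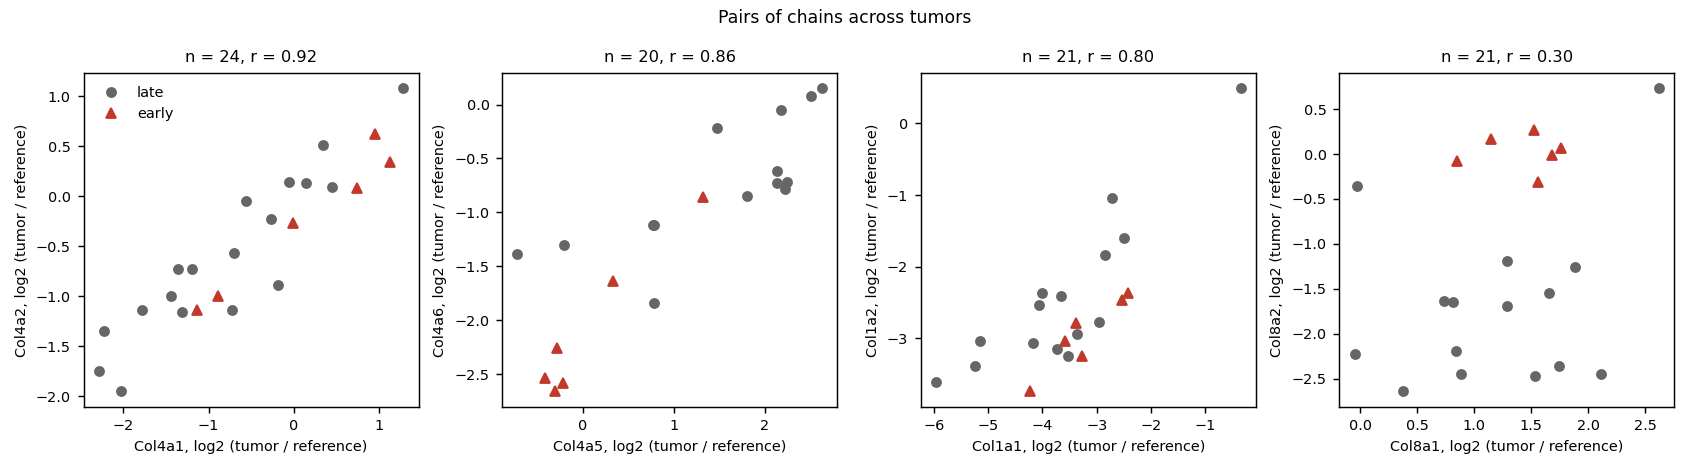
Levels of the chains of 4 pairs plotted against each other, as log2 tumor over reference, with triangles for early and circles for late tumors. Col4a1 with Col4a2 lies close to a line (r = 0.92), and Col8a1 with Col8a2 is scattered (r = 0.30).

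MSU_86, a late HFD tumor, stood apart from the others of its group in several collagen genes. Its Col17a1 level was 4.10, with the other late HFD tumors between 1.09 and 1.69, and its level of Col7a1, the anchoring fibril collagen of skin, was 3.56 against 0.74 to 1.56. Its Col1a1 level of −0.35 and its Col1a2 level of 0.49 were the highest of all tumors measured. Its Col4a1 level was −2.23, against −0.27 to 0.45. In the same tumor the mean level of the squamous differentiation markers was the highest of the 24 tumors (2.94), that of the luminal markers the lowest (−1.60), and that of the fibroblast markers ranked 23 from the lowest (−0.73). Their part in the collagen levels of MSU_86 was not tested.

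Genes that make, modify or bind collagen were taken from lists of known members. Of 30 tested genes of collagen synthesis and processing, 2 were higher and 1 lower in early tumors. The higher genes were Plod2, a lysyl hydroxylase that prepares collagen for cross-linking (1.43 ± 0.19, adjusted p = 0.000199), and Loxl4, a lysyl oxidase that forms cross-links (3.27 ± 0.54, adjusted p = 0.000547). Plod2 levels lay between 0.49 and 1.42 in early tumors and between −1.13 and 0.46 in late tumors, without overlap. Loxl4 levels overlapped, from −1.69 to 3.70 in early tumors and from −2.19 to 1.49 in late tumors. Among 9 collagen receptors only Ddr2, a discoidin domain receptor tyrosine kinase, was called and was lower in early tumors (−1.33 ± 0.27, adjusted p = 0.00276). The next smallest adjusted p was that of Lair1 (−0.40, adjusted p = 0.0842), an inhibitory collagen receptor of leukocytes.

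Of 15 basement membrane partners, Lama4, a laminin chain of vessels, was higher in early tumors (0.89 ± 0.25) and Lamc3 was lower (−1.72 ± 0.50). Of 15 interstitial matrix partners 1 was higher and 3 were lower. Fbln1, a fibulin of elastic and basement membrane matrix, was higher by 1.29 ± 0.19 (adjusted p = 0.000372). Dcn, the small proteoglycan decorin that binds collagen fibers, was lower (−2.27 ± 0.54, adjusted p = 0.00763). The shares called in these lists were 10, 11.1, 13.3 and 26.7%, in the order given, beside 16.8% of all genes in both directions.

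Markers of the cell types that a mammary tumor can hold were set beside tumor onset, and their part in the collagen differences was not tested. The share called was 44.4% of luminal, 37.5% of cartilage and bone and 30% of endothelial markers, against 16.8% of all genes. It was 14.3% of fibroblast, adipocyte and macrophage markers, 12.5% of basal markers and 0% of squamous and skeletal muscle markers, all below that of all genes. Of 9 luminal markers 4 were lower in early tumors, among them the luminal regulator Gata3 (−2.15) and the keratin Krt19 (−2.69), and the mean level of the list ranged from −0.01 to 2.14 (median 0.40) in early and from −1.60 to 3.05 (median 2.62) in late tumors. None of 10 squamous markers was called, the smallest adjusted p being that of the cornified envelope gene Sprr1a (2.42, adjusted p = 0.0639), but all had a difference above 0, with a mean level from −2.83 to 0.41 (median −0.23) in early and from −4.05 to 2.94 (median −3.30) in late tumors. Of 8 basal markers only Myh11, smooth muscle myosin, was called (−2.91). Of 14 fibroblast markers, 2 were called, both lower in early tumors, and the ranges of the mean level were −2.05 to −1.47 and −2.38 to −0.69. Of 10 endothelial markers, 3 were lower, the vascular receptor Flt1 among them (−1.06), and the ranges were −1.85 to −1.25 and −2.09 to −0.45. Of 8 cartilage and bone markers, 1 was higher, Sp7 (0.54), and 2 were lower, Alpl (−2.37) and the proteoglycan Acan (−0.96). Of the collagen chains known from cartilage, Col10a1 and Col9a3 were higher, and Col2a1 (−0.18), Col11a1 (−0.44), Col11a2 (−0.24), Col9a1 (0.35) and Col9a2 (−0.43) were not called. Of 7 adipocyte markers 1 was lower, of 7 macrophage markers 1, and of 8 skeletal muscle markers none was called. MSU_163, the early tumor with low Col10a1 and high Col4a5 and Col4a6, had a squamous mean of −2.83 and a luminal mean of 2.14, the lowest and the highest of the 6 early tumors.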

How the data were processed

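The 24 arrays were 1 per tumor. The deposited scanner files hold spot intensity in both channels and a log10 ratio, which the authors made with Feature Extraction (11.0.1.1 in the file headers, 8.5.1.1 in the submitters' processing notes). The methods of the study name lowess, a filter on signal over 10 on 80% of arrays, imputation from 10 neighbors and significance analysis of microarrays, for which limma stood in. Here intensity was background-corrected (normexp, offset 50) and normalized by loess within arrays in limma 3.58.1 (R 4.3.3). The filter asked for a signal over 10 in both channels on 80% of the arrays where a probe was not dimmed. Spots with an outlier flag were also set missing, and missing values were imputed from 10 neighbors. Imputed values were thus not only those of weak signal. Col3a1 had signal in both channels on all 24 arrays and 5 imputed values. Bands of 10 rows whose median log2 ratio fell more than 0.5 below the rest of the array were set missing (4.53% of values), and 4.31% were imputed. Of 39429 probes, 27277 passed, and the brightest stood for its gene. Probes were named through RefSeq tables of GRCm38.p6 by accession (27234), symbol (3576) or older symbol (565), or kept the name in the file (8054). Which probe stood for a gene, the filter and the missing rows can all move a difference. limma was fitted over 20943 genes with Benjamini-Hochberg adjustment and checked on simulated data. Samples were grouped by the GEO description, and replicate numbers follow accession order and pair nothing. Array number limits the precision. Named were 10 fixed genes of the main chain types, every gene called in a comparison or otherwise the 2 of smallest p, and from each other list at most the 2 of smallest p. Further list genes named were chosen after their values were seen. The collagen genes and lists were chosen with earlier results of these data known. Alternatives, among them median centring, session and slide blocks and leaving out each tumor, were run on the counts of called collagen genes. They were also run on the differences of the fixed and called collagen genes, or the 2 of smallest p. The chain pairs had fewer settings, and genes of the other lists had none. Leaving out MSU_67 and MSU_84, which have the most probes above background, was added after the data were seen, as were another setting for dimmed rows, a fit of every probe and HFD against LFD within session 1.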

Additional observations from a re-analysis of the deposited data

Results flagged for a closer look

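Among 22 collagen genes, 60 sets of 4 to 6 tumors of 1 group were tested for a tumor far from the others by Dixon's gap test, and 9 passed its 95% limit. Chance gives about 1 in 20 such sets, and sets of the same tumors are not independent.

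MSU_86 of late HFD gave 5 of the 9. Its log2 level was 4.10 for Col17a1, 3.56 for Col7a1, −0.35 for Col1a1 and −0.72 for Col5a1, each above the other late HFD tumors, whose highest levels were 1.69, 1.56, −2.49 and −2.55. Its Col4a1 level was −2.23, below the lowest of the others at −0.27. MSU_24 of LFD-HFD gave 2, with levels below the other LFD-HFD tumors of −1.95 for Col4a2, where the lowest other was −0.73, and 0.33 for Col7a1, where the lowest other was 1.40. MSU_42 of LFD-HFD was above the others for Col4a5 at 2.51, against a highest of 2.14. MSU_28 of LFD was above the others for Col8a2 at 0.73, against a highest of −1.65, and its second Col8a2 probe read −1.51.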

How the results depend on the processing

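Each of the 10 genes called between early and late tumors kept its direction under all alternatives, and Col8a2 alone kept its call under all of them. The number higher in early tumors was 4, but 7 with median centring and 1 within session 1, and 3 to 4 without single tumors. The number lower was 6, but 3 (7.69%) with dimmed rows kept, in the tumor channel alone and within session 2, where 7.83, 4.73 and 6.42% of all genes were lower. It was 2 (5.13%) with median centring, with slide as a random block, within session 1, and in HFD and HFD-LFD tumors with a diet term, where 4.46, 4.37, 4.59 and 10.2% of all genes were. Without single tumors it was 4 to 6, and it was 7 with session as a block (15% of all genes) and 7 when members were taken by the symbol updated through RefSeq in place of the name in the file. No collagen gene was called between HFD and LFD under any alternative. The 2 calls within HFD became 16 with array weights, 7 without the slides with dimmed rows and with session as a block, and 1 in the tumor channel alone, with slide as a block and without MSU_67 and MSU_84. Without single tumors they were 1 to 3, the lowest without MSU_768 or MSU_97. Within HFD-LFD the count of 0 became 6 with array weights, 2 without the slides with dimmed rows and 1 with session as a block, and was 0 to 1 without single tumors (1 without MSU_59b). The count of differences between the diets was 2 with array weights and 0 to 1 without single tumors (1 without MSU_97). The count by diet among late tumors was 14 with array weights, 1 without the slides with dimmed rows and 0 to 1 without single tumors (1 without MSU_86). Within session 1, 3.18% of all genes were higher. The share of all genes called moved too. It was 38.6% within HFD with array weights, 17% without the slides with dimmed rows and 17.1% with session as a block, against collagen shares of 41, 18.4 and 17.9%. In the settings with 1 call within HFD it was 5.58, 1.16 and 7.26%, in the order given, against 2.56%. Within HFD-LFD it was 10.6, 2.16 and 2.01%, in the order given, against 15.4, 5.26 and 2.56% of collagen genes. Among late tumors by diet without the slides with dimmed rows it was 1.3% against 2.63%. For the difference between the diets with array weights it was 2.28% against 5.13%. The cause of these changes was not tested, and some of the settings hold fewer tumors.

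Signs changed only where no call was made. For early minus late, Col1a1 was −0.15 and Col5a1 −0.36 with the diet term, Col5a1 −0.02, Col7a1 −0.18 and Col18a1 −0.22 within session 1, and Col6a1 0.18 with median centring. Col18a1 was −0.01 in the tumor channel alone, −0.10 without the slides with dimmed rows and −0.06 with array weights. Without single tumors Col5a1 ran from −0.05 to 0.24 and Col18a1 from −0.15 to 0.11. For HFD minus LFD, Col4a1 was −0.02 and Col4a2 −0.06 with late HFD tumors only. Col18a1 was 0.02 as a mean over probes, 0.18 without the slides with dimmed rows, 0.06 with array weights and 0.13 within session 1. Without single tumors Col4a2 ran from −0.08 to 0.48 and Col18a1 from −0.21 to 0.00. With dimmed rows kept, r was −0.03 for Col8a1 with Col8a2 and −0.15 for Col11a1 with Col11a2. The latter was −0.02 with median centring, −0.08 by the scanner log ratio, −0.01 without the slides with dimmed rows and −0.01 to 0.11 without single tumors. Col9a1 with Col9a2 was −0.01 without the slides with dimmed rows and −0.05 to 0.19 without single tumors. No paired analysis was possible because replicate numbers were given in accession order only.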
